A study of Mus musculus with 2 samples.

Results

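The 8 genes Myh3, Myh7, Myh8, Myl1, Myl4, Mylpf, Acta1 and Actc1 encode isoforms of the contractile proteins of striated muscle, and were followed through the developing mouse lower jaw and tongue. They were chosen by name, as 8 of the 15944 genes listed in both count tables, and all 8 were found. The mandibular prominence, the embryonic tissue that forms the lower jaw and much of the tongue, was dissected from wild-type CD1 embryos at embryonic day 11.5 (E11.5) and embryonic day 13.5 (E13.5). Its cells were released with a bacterial protease, at 3 mg/ml for E11.5 and 5 mg/ml for E13.5, and profiled by droplet-based 10x single-cell RNA sequencing. No genotype, agent or sort set the 2 stages apart in the labels, and how many embryos gave each library is not given in the sources used here. With 1 library per stage there is no replicate, so no p-value is given, and a difference between stages cannot be told apart from one between libraries or protease concentrations. The members were read in 4 clusters of the authors' deposited clustering. These were cluster 14 of E11.5, which carries no lineage name, and clusters 1, 15 and 19 of E13.5, which the authors named tongue muscle. The other 36 clusters served as a check for RNA released by broken cells.

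Striated muscle contracts when thick filaments of myosin pull on thin filaments of actin. A myosin molecule holds a pair of heavy chains, which carry the motor, and each heavy chain binds an alkali (essential) and a regulatory light chain. Each of these proteins comes in isoforms, and embryonic muscle is known to use isoforms that adult limb muscle later replaces, while the muscle precursors that divide make little or none of them. In the tongue, myoblasts that enter from the occipital somites stop dividing, switch on the transcription factor Myog and build sarcomeres as they fuse into fibres.

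Among the heavy chains, Myh3 encodes the embryonic, Myh8 the perinatal and Myh7 the slow (beta-cardiac) isoform. Myl1 encodes the alkali light chain of fast fibres and Myl4 that of embryonic muscle and the atrium, while Mylpf encodes the regulatory light chain of fast fibres. Acta1 and Actc1 encode the skeletal and cardiac alpha-actins. In GRCm38, Myh3 lies on chromosome 11 at 67078300 to 67102291 and Myh8 on the same plus strand at 67277124 to 67308634. Myl4 is on chromosome 11 as well, at 104550663 to 104595753. Myh7 lies on chromosome 14 at 54970684 to 54994626, Myl1 on chromosome 1 at 66924295 to 66945404 and Mylpf on chromosome 7 at 127208890 to 127214298. Acta1 lies on chromosome 8 at 123891769 to 123894751 and Actc1 on chromosome 2 at 114047282 to 114053548. Reads of a 3' library come from the end of a transcript, so the last 500 bases of each member's longest coding transcript were compared with all other transcripts in windows of 50 bases. Myh7 shared 230 of its 451 windows with its neighbour Myh6, and Myl1 shared 90 of 451 with the pseudogene Mylf-ps. Myh8 shared 6 with Myh1 and Myh2, and Myh3, Myl4, Mylpf, Acta1 and Actc1 shared none. Exons of Myh7 also overlap 3 antisense genes and an exon of Myl4 overlaps 1 gene on the other strand, and whether the counting used strand is not given in the sources used here. Counts of Myh7, and to a lesser degree Myl1, are therefore uncertain. The 2 isoforms of Myl1 share a 3' end and were not told apart.

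RefSeq promoter sequences were found for all 8 members. The 250 bases before the RefSeq start of 4 of them are shown, 5' to 3' on the gene's strand, because both actin genes hold a CArG box (the binding motif of serum response factor) and the fast light chains and Acta1 hold the CAGCTG form of the E box (the motif of Myod1 and Myog). Capitals mark these motifs.
Actc1, GRCm38 chr2:114052876-114053125, minus strand: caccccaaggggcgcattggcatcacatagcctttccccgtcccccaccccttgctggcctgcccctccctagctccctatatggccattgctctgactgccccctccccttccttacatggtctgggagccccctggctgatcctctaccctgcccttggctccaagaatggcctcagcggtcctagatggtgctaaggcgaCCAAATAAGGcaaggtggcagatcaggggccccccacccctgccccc
Acta1, GRCm38 chr8:123894776-123895025, minus strand: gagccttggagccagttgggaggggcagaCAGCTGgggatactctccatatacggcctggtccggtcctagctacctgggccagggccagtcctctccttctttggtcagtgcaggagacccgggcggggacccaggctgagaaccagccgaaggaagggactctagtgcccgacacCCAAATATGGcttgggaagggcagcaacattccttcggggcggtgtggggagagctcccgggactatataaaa
Myl1, GRCm38 chr1:66945057-66945306, minus strand: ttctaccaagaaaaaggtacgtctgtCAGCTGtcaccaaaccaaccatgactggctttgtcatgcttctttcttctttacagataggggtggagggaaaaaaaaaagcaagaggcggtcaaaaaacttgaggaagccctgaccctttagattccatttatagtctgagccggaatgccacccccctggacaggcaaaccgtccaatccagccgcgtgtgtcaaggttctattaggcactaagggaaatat
Mylpf, GRCm38 chr7:127211358-127211607, plus strand: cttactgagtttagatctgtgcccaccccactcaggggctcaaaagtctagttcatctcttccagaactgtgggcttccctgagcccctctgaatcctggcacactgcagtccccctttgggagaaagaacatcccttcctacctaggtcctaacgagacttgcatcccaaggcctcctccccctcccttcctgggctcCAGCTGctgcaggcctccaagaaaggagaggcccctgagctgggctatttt

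Both strands were searched. A CArG box was found in 2 of the 8 members, Actc1 and Acta1, and in 1.47% of the 32851 mouse promoters of the table. Its last base lies 38 bases before the start of Actc1 and 64 bases before that of Acta1. CAGCTG was found in Myl1, Mylpf and Acta1, and in 4271 of all 32851 promoters. The looser E box CANNTG, which covers CAGCTG, was found in 6 members (all but Myl4 and Actc1) and in 66.2% of all promoters. TATAAA was found in Myh3, Myh8, Myl1 and Acta1, and in 12.4% of all promoters. For Myl1, Mylpf and Actc1 the RefSeq start lies inside the span that GENCODE gives the gene. A match describes these letters and is not evidence of binding.

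The E11.5 library held 7099 cells with a median of 6231 UMIs (unique transcript counts) and the E13.5 library 6318 cells with a median of 9280. Muscle clusters made up 151 cells (2.13%) of E11.5 and 752 cells (11.9%) of E13.5. Median depth was 11778 UMIs in E11.5 cluster 14, and 19640, 15456 and 23711 in E13.5 clusters 1, 15 and 19. Of the 12 skeletal muscle markers listed for the check, 9, 10, 7 and 7 stood at 10 CPM (counts per 1000000 UMIs) or more and at least 5-fold over the mesenchyme of the same library in these clusters in the same order. Myod1 and Myog were among them in each cluster. The authors called 21.2%, 3.54%, 84.0% and 100% of the cells G1, in the same order, and the rest S or G2M. These calls were not checked against cell cycle genes here. The libraries shared 71 cell barcodes.

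The 8 genes were found overwhelmingly in muscle cells at E13.5. Their summed UMIs numbered 140733 in that library, of which 95.9% lay in the 3 tongue muscle clusters. At E11.5 they numbered 1685, of which 63.9% lay in cluster 14. Together they took 0.0590% of the UMIs of E11.5 cluster 14, 0.0476% of E13.5 cluster 1, 1.01% of cluster 15 and 5.37% of cluster 19. Clusters 15 and 19 thus held nearly all of the E13.5 signal, though they are the smaller muscle clusters (163 and 80 cells, against 509 in cluster 1).

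Outside muscle the genes were detected throughout the E13.5 library at a low and nearly even level. Of its 19 other clusters, 2 had no UMI of Myh7 and 2 none of Myh8, while the other 6 genes were found in all. In E13.5 mesenchyme Myh3 stood at 6.24 CPM, Myl1 at 7.61, Myl4 at 14.1, Mylpf at 43.8, Acta1 at 9.10 and Actc1 at 27.4, with Myh8 at 1.60 and Myh7 at 0.700. The make-up was also even. Mylpf gave 39.6% of the members' UMIs in mesenchyme, 40.4% in epithelium and 41.8% in glia, and Actc1 gave 24.8%, 25.1% and 20.3%. These shares lie closer to those of cluster 19 (38.0% and 19.1%) than to those of cluster 15 (25.2% and 52.1%) or cluster 1 (11.3% and 75.6%). Myl1 did not follow, at 6.89% in mesenchyme against 13.7% in cluster 19, 13.2% in cluster 15 and 3.21% in cluster 1. The highest levels outside muscle were in shallow clusters. For Myl1, Myl4, Mylpf, Acta1 and Actc1 it was E13.5 cluster 8, unnamed and with a median of 935.5 UMIs, where Mylpf reached 178 CPM. For Myh3, Myh7 and Myh8 it was cluster 21, a mesenchyme cluster with a median of 1833 UMIs, on 4, 1 and 1 UMIs. Only 5 of 5566 E13.5 cells outside muscle, all in cluster 8 and under 2000 UMIs, had 0.5% or more of their UMIs in the members, and 0 of 6948 did at E11.5. At E11.5 the mesenchyme level was 7.59 CPM for Mylpf, 2.04 for Actc1 and at most 0.697 for the other 6. There the highest level outside muscle was that of Mylpf in erythroid cluster 12, at 18.6 CPM, and Mylpf gave 68.4% of the members' UMIs in mesenchyme against 20.5% in cluster 14. The mesenchyme level is given below as the background in each library.

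**Figure D1:**
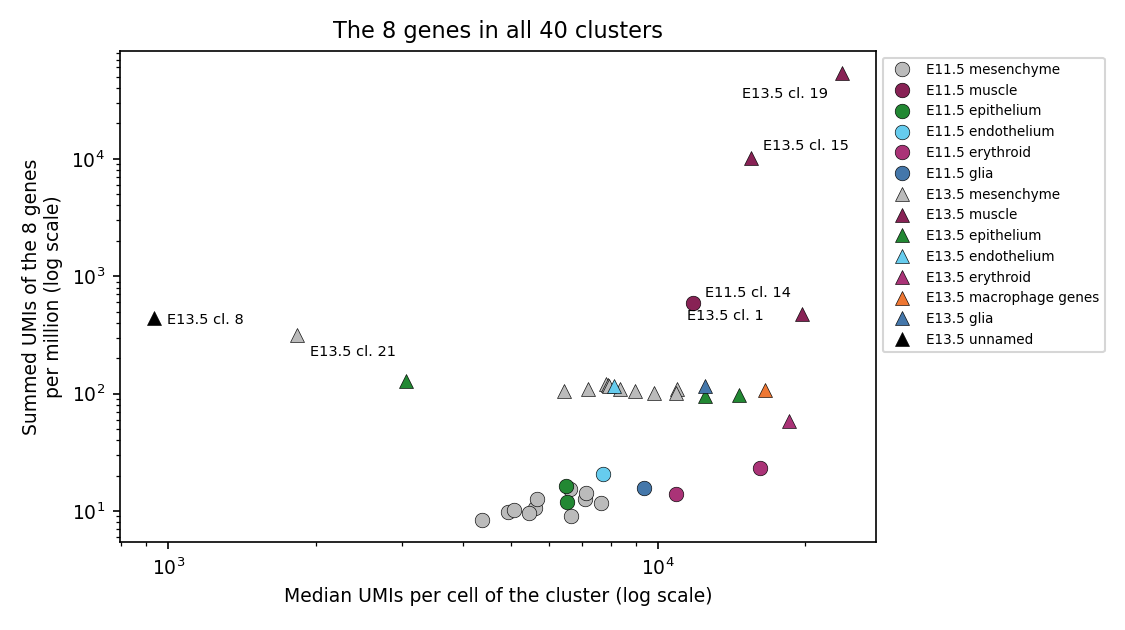
Summed level of the 8 genes (CPM, log scale) against the median UMIs per cell (log scale) in each of the 40 clusters, with circles for E11.5, triangles for E13.5 and colours for cell classes. E13.5 clusters 15 and 19 stand far above all others, while E13.5 cluster 1 is near the shallow clusters 8 and 21, and most other E13.5 clusters form a flat band above those of E11.5.

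Levels are given as CPM, the summed UMIs of a gene over those of its cluster, with the exact Poisson 95% interval, which covers counting error only. They are compared between clusters for 1 gene, not between genes, since 3' capture differs between transcripts.

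Myh3, the embryonic heavy chain, stood at 10.95 CPM (6.69 to 16.9) in E11.5 cluster 14, at 5.41 (4.08 to 7.05) in E13.5 cluster 1, at 187 (171 to 205) in cluster 15 and at 2182 (2116 to 2248) in cluster 19. It was thus high in cluster 19, intermediate in cluster 15 and low in the others, and in cluster 1 it did not exceed the mesenchyme level (0.868 of it, 0.633 to 1.17). Myh8, the perinatal heavy chain, stood at 10.95 (6.69 to 16.9), 10.0 (8.19 to 12.2), 54.6 (45.9 to 64.4) and 493 (462 to 525) in the same order. The 2 low clusters overlapped, but in cluster 1 the gene was 6.26-fold (4.47 to 8.86) over mesenchyme, unlike Myh3. Myh7, the slow heavy chain, gave 1 UMI in E11.5 cluster 14, 4 in E13.5 cluster 1 and 7 in cluster 15, at 0.548, 0.394 and 2.73 CPM. It reached 111 (96.5 to 127), from 215 UMIs, in cluster 19, where 62.5% of the cells held a UMI of it. In cluster 15 the 7 UMIs were 3.90-fold (1.42 to 9.33) over mesenchyme. Transcripts of the slow isoform were therefore few everywhere but in cluster 19, with the caution that part of its 3' end cannot be told from Myh6, which stood at 3.09 there. In E11.5 cluster 14 and E13.5 cluster 1 Myh6 stood above Myh7, at 3.29 and 5.32 CPM.

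Myl1, the fast alkali light chain, stood at 100.2 (86.2 to 116) in E11.5 cluster 14, 15.3 (12.9 to 17.9) in E13.5 cluster 1, 1329 (1285 to 1374) in cluster 15 and 7339 (7219 to 7461) in cluster 19. It was the member with the largest gap between the 2 low clusters. Its level in cluster 1 was above the 7.61 of mesenchyme, with an interval of 1.63-fold to 2.45-fold. Myl4, the embryonic alkali light chain, stood at 17.5 (12.0 to 24.7), 22.3 (19.5 to 25.4), 419 (394 to 444) and 7251 (7131 to 7372) in the same order. Its intervals overlapped between the low clusters, and in cluster 1 it was 1.59-fold (1.35 to 1.87) over mesenchyme. Mylpf, the fast regulatory light chain, stood at 121 (106 to 138), 53.6 (49.2 to 58.3), 2542 (2481 to 2605) and 20406 (20206 to 20608). It was highest in cluster 19 and, between the low clusters, higher in that of E11.5. Its cluster 1 level was 1.22-fold (1.11 to 1.35) over mesenchyme.

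Acta1, the skeletal actin, stood at 27.4 (20.3 to 36.1), 9.06 (7.30 to 11.1), 300.1 (279 to 322) and 5652 (5546 to 5758) CPM in the same order. In cluster 1 it equalled mesenchyme (0.995 of it, 0.780 to 1.26). Actc1, the cardiac actin that embryonic skeletal muscle also makes, stood at 301 (276 to 327), 360 (348 to 372), 5267 (5179 to 5357) and 10262 (10120 to 10406). It was well above background in all 4 clusters, at 148-fold (116 to 190) over mesenchyme in E11.5 cluster 14 and 13.1-fold (12.2 to 14.1) in E13.5 cluster 1. In both low clusters it gave more UMIs than the other 7 members put together, 51.1% and 75.6% of their sum.

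**Figure D2:**
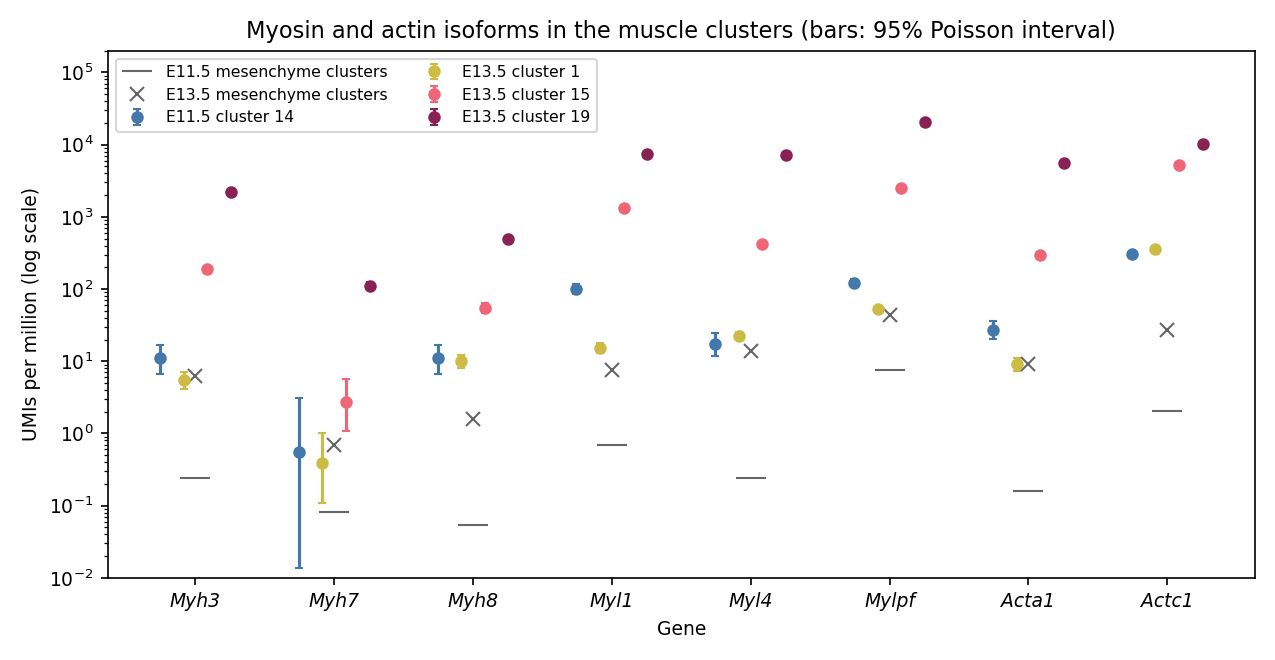
Level of each gene (CPM, log scale) in the 4 muscle clusters, with 95% Poisson intervals as bars, and in the mesenchyme of each library in grey. Every gene is highest in E13.5 cluster 19 and second in cluster 15, and in E13.5 cluster 1 Myh3, Myh7 and Acta1 lie at or under the E13.5 mesenchyme.

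Clusters were set side by side by the ratio of these levels. A gene with at least 20 UMIs over both groups was counted as higher or lower at a ratio of 1.5-fold or more with a 95% interval (exact conditional binomial) that did not include 1. This is a rule of size and not a test, and because the clusters were made from the same counts, contrasts between clusters of 1 library are descriptions. Between E13.5 clusters 15 and 1, all 7 measured members were higher in cluster 15, against 11.9% of 10902 genes higher and 22.4% lower. The ratio was 87.1 (74.2 to 103) for Myl1, 47.4 (43.4 to 51.8) for Mylpf and 34.6 (26.2 to 46.7) for Myh3. It was 33.1 (26.7 to 41.6) for Acta1, 18.7 (16.2 to 21.7) for Myl4, 14.6 (14.1 to 15.2) for Actc1 and 5.44 (4.18 to 7.09) for Myh8. Myh7 had too few UMIs to be measured. By these ratios the fast light chains differed most and the perinatal heavy chain least, but the ratios depend on the background in cluster 1. The mesenchyme level was 115% of the cluster 1 level for Myh3, 100.5% for Acta1, 81.6% for Mylpf, 62.9% for Myl4 and 49.9% for Myl1. It was 16.0% for Myh8 and 7.62% for Actc1. The order of the ratios is therefore not read as an order of the members. Myog, the regulator of differentiation, was 25.1-fold (24.0 to 26.3) higher in cluster 15, and Pax7, a marker of progenitors, gave 216 UMIs in cluster 1 and 0 in cluster 15.

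From cluster 15 to cluster 19, all 8 members were higher again (Myh7 reached the minimum of UMIs only through cluster 19), against 13.3% of 8781 genes higher and 16.8% lower. Myh7 was 40.6-fold (19.4 to 102) higher, Acta1 18.8-fold (17.5 to 20.3) and Myl4 17.3-fold (16.3 to 18.4). Myh3 was 11.6-fold (10.6 to 12.8), Myh8 9.04-fold (7.56 to 10.9), Mylpf 8.03-fold (7.82 to 8.24) and Myl1 5.52-fold (5.32 to 5.73) higher. Actc1 was only 1.95-fold (1.91 to 1.99) higher, and did not reach 2-fold. The ratios ranked the members differently in the 2 steps, with Myl1 first in one and next to last in the other. Both ratios use the cluster 15 level, on opposite sides, and those over cluster 1 depend on its background. Nothing is therefore read from the change of order. Over the same step Myog was lower, at 0.521 (0.506 to 0.538) of its cluster 15 level, as was Myod1, at 0.611 (0.574 to 0.650), while the intermediate filament gene Des was 2.48-fold (2.31 to 2.66) higher. Cluster 19 against cluster 1 gave 8 of 8 higher, from 28.5-fold (27.5 to 29.6) for Actc1 to 624-fold (508 to 775) for Acta1. Of 10970 genes, 16.4% were higher and 30.1% lower, and the median log2 ratio of all genes was -0.30. Myh7, with 4 UMIs in cluster 1, again reached the minimum only through cluster 19. The members take 5.37% of the UMIs of cluster 19. Leaving them out of the total kept all 8 higher in both contrasts with that cluster.

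Between stages, the 3 E13.5 clusters pooled were higher than E11.5 cluster 14 in all 8 members, against 9.38% of 11428 genes higher and 13.7% lower (all-gene median -0.11, log2). Myh7, with 1 UMI at E11.5, reached the minimum of UMIs only through the E13.5 clusters, so its call is not counted as a result. The ratio ran from 7.47 (4.81 to 12.3) for Myh8 and 8.40 (7.72 to 9.15) for Actc1, through 12.1 (10.5 to 14.1) for Myl1 and 26.3 (23.0 to 30.1) for Mylpf, to 59.8 (42.4 to 87.5) for Myl4. Myh7, Acta1 and Myh3 lay between, at 28.1 (5.00 to 1117), 29.5 (22.3 to 39.7) and 29.7 (19.2 to 48.7). These totals rest on clusters 15 and 19, which hold 243 of the 752 cells.

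Cluster 1 alone gave another picture. Of 7 measured members, 0 were higher than in E11.5 cluster 14 and 4 were lower, against 6.53% of 10772 genes higher and 11.8% lower. Myl1 was 6.57-fold (5.27 to 8.19) lower, Acta1 3.02-fold (2.10 to 4.31), Mylpf 2.26-fold (1.92 to 2.64) and Myh3 2.02-fold (1.15 to 3.43). Myh8 (0.917, 0.564 to 1.56), Actc1 (1.19, 1.09 to 1.31) and Myl4 (1.28, 0.878 to 1.91) were neither. The count depended on which cells of E11.5 cluster 14 were used. Leaving out the 6 of its 151 cells that held at least 0.5% of their UMIs in the members lowers the E11.5 levels by that choice. These cells were chosen after their values were seen. Without them 3 members were higher in cluster 1 (Myh3, Myl4 and Actc1, with Myh3 on 55 UMIs against 1) and only Myl1 was lower. Myh3, and Myl4 with 15 UMIs at E11.5, reached the minimum of UMIs only through cluster 1. Among S and G2M cells only, 5 were higher (Myh3, Myl4, Mylpf, Acta1 and Actc1) and 0 lower. Here Myh3, Acta1 and Myl4 had 0, 0 and 2 UMIs at E11.5 and reached the minimum of UMIs only through cluster 1. The share of all genes past the rule was not computed for either choice of cells, so nothing is read from these counts of members. In both comparisons Myh3 of cluster 1 was at the E13.5 mesenchyme level, which is itself above that of E11.5. Among S and G2M cells Mylpf and Acta1 of cluster 1 were also at or near that level.

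These 6 cells were picked for their member content, so what they hold of the members is a description of that choice. All 6 were called G1 and all 6 held UMIs of Myog (37 to 103 per cell), and none held Pax7. Together they gave 590 of the cluster's 1077 member UMIs (54.8%), among them 19 of 20 for Myh3, 37 of 50 for Acta1, 153 of 221 for Mylpf, 127 of 183 for Myl1, 17 of 32 for Myl4, 232 of 550 for Actc1 and 5 of 20 for Myh8. The other 145 cells held most of Actc1, at 179 CPM, and most of Myh8, at 8.46 CPM. The cell richest in the members had 2.94% of its 6911 UMIs in them, with 75 of Mylpf, 45 of Actc1, 38 of Myl1, 26 of Acta1, 10 of Myl4, 9 of Myh3 and 0 of Myh7 and Myh8. That share lies within the range of E13.5 cluster 19, where cells held from 1.92% to 8.22%. The other 5 cells held 0.566% to 1.23%, within the range of cluster 15 (0.114% to 6.96%). Actc1, Myl1, Mylpf and Acta1 were present in all 6, Myl4 in 5, Myh8 in 4 and Myh3 in 3.

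**Figure D3:**
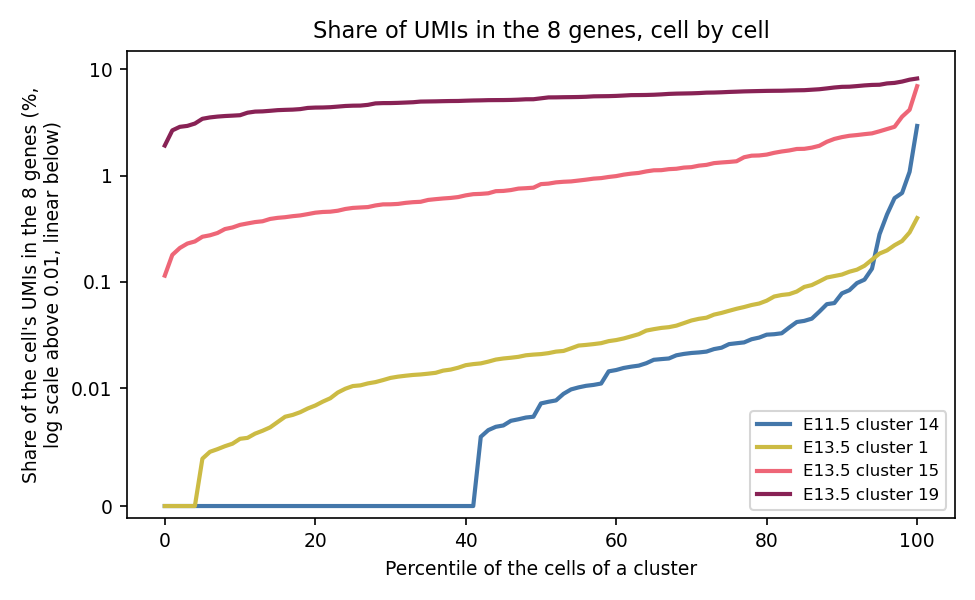
Percent of a cell's UMIs that came from the 8 genes (log scale above 0.01, linear below) against the percentile of the cell within its cluster, for the 4 muscle clusters. E13.5 cluster 19 is flat near its median of 5.35%, cluster 15 is graded around 0.832%, cluster 1 stays under 0.398%, and the last few percentiles of E11.5 cluster 14 climb to 2.94%.

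To compare shares of cells across depths, UMIs were drawn at random down to 2000 per cell (thinning), and 2 cells each of clusters 1 and 15 were too shallow to be used. Actc1 was found in 100% of cluster 15 cells (97.7 to 100, exact Clopper-Pearson interval), Mylpf in 73.3% (65.8 to 79.9) and Myl1 in 67.1% (59.2 to 74.3). Fewer of them held Myl4 (37.3%, 29.8 to 45.2), Acta1 (26.7%, 20.1 to 34.2), Myh3 (26.1%, 19.5 to 33.6) or Myh8 (10.6%, 6.27 to 16.4). In cluster 19, Actc1, Mylpf, Myl1, Myl4 and Myh3 were found in 100% of cells and Acta1 in 98.8%, followed by Myh8 in 61.3% (49.7 to 71.9) and Myh7 in 18.8% (10.9 to 29.0). Cluster 19 was thus uniform for 6 members while cluster 15 was so for Actc1 alone. Without thinning, at median depths of 15456 and 23711 UMIs, Acta1 was found in 57.1% and 100% of the cells of clusters 15 and 19, and Myh3 in 52.1% and 100%. In the mesenchyme of E13.5, which should lack these proteins, the thinned shares were 8.57% for Mylpf, 5.23% for Actc1 and 2.51% or less for the others, and the unthinned ones 31.2%, 20.9% and 11.6% or less at a median depth of 8303 UMIs. E13.5 cluster 1 was at or under this background for Mylpf (7.89%, 5.70 to 10.6), Acta1 and Myh3 (both 0.789%), and above it for Actc1 (29.6%, 25.6 to 33.8). In E11.5 cluster 14, Actc1 was found in 21.2% of 151 cells, Mylpf in 7.95% and Myl1 in 5.30%, against 0.373%, 1.27% and 0.0678% in E11.5 mesenchyme.

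**Figure D4:**
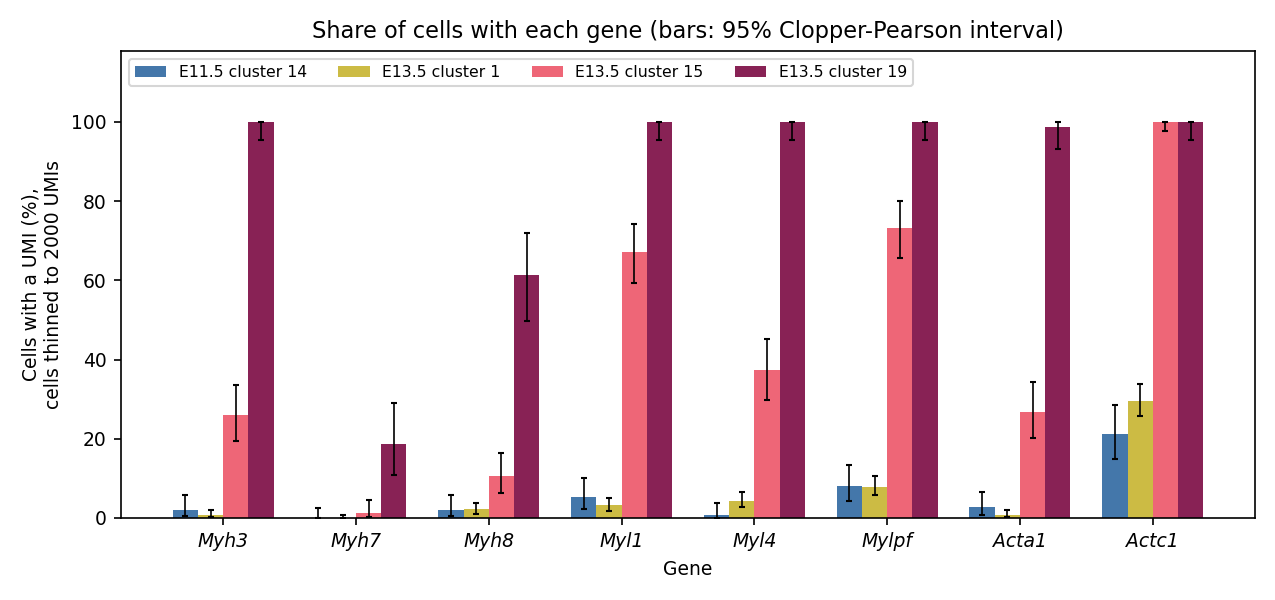
Percent of cells with at least 1 UMI of each gene after thinning every cell to 2000 UMIs, in the 4 muscle clusters, with 95% Clopper-Pearson intervals as bars. Actc1 is at 100% in both E13.5 clusters 15 and 19, the other genes except Myh7 and Myh8 reach 98.8% or more in cluster 19 alone, and E11.5 cluster 14 and E13.5 cluster 1 are low throughout.

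Counted together, a thinned cell held a median of 0 members in E11.5 cluster 14 and in E13.5 cluster 1, 3 in cluster 15 and 7 in cluster 19. In cluster 15, 27 of 161 cells held exactly 1 member, and in all 27 it was Actc1. Of the 134 that held 2 or more, all held Actc1. Cells with Acta1 held Myh3 more often than the cluster at large (55.8% of 43 cells, 39.9 to 70.9, against 26.1% of all), and cells with Myh3 held Myl4 more often (73.8% of 42 cells, 58.0 to 86.1, against 37.3%). In E11.5 cluster 14, 21 of the 26 cells with exactly 1 member had Actc1, as did all 11 cells with 2 or more. Another 5 cells of that cluster held other members without Actc1. In E13.5 cluster 1, 175 cells held exactly 1 member, which was Actc1 in 119, and 60 cells held other members without Actc1. At 2000 UMIs Actc1 was found in all cells of clusters 15 and 19, so its presence beside any other member there was fixed in advance. In clusters 14 and 1 some cells held other members without it.

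By the authors' phase call, the members of E11.5 cluster 14 were concentrated in its 32 G1 cells. Mylpf gave 198 of its 221 UMIs there, at 573 CPM against 15.5 in the 119 S and G2M cells, a ratio of 36.9 (23.9 to 59.5). Myl1 gave 159 of 183, a ratio of 28.4 (18.4 to 45.6), and Myl4 30 of 32, a ratio of 64.3 (16.3 to 555) on 2 UMIs. All 50 UMIs of Acta1 and all 20 of Myh3 were in G1 cells, at least 71.4-fold and 28.6-fold higher against a floor of 3 UMIs over the S and G2M cells. The lower limits of the exact intervals of these ratios were 55.9 and 21.1. Actc1 was less divided, at 972 against 145 CPM (6.73-fold, 5.65 to 8.02), and its level in cells called S or G2M was still far above the 2.04 of mesenchyme. Myh8 was 2.86-fold (1.01 to 7.60) higher in G1. Each of these members was counted as higher, beside 3.11% of 6878 genes higher and 3.29% lower, but Myh3, Acta1 and Myl4 reached the minimum of 20 UMIs only through the G1 cells, so nothing is read from their number. Without the 6 cells described above the ratios were smaller, at 9.94 (5.89 to 17.2) for Mylpf, 6.77 (3.87 to 12.0) for Myl1 and 2.47 (1.93 to 3.14) for Actc1, and the other members fell under the minimum.

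In E13.5 cluster 15 the division was shallower. Of 7 measured members, 5 were higher in its 137 G1 cells than in its 26 S and G2M cells, against 5.04% of 7203 genes higher and 8.32% lower. Acta1 stood at 351 against 76.3 CPM (4.59-fold, 3.29 to 6.61), Myl1 at 1527 against 449 (3.40-fold, 2.96 to 3.92) and Mylpf at 2878 against 1053 (2.73-fold, 2.49 to 3.00). Myh3 was 2.63-fold (1.88 to 3.76) and Myl4 1.71-fold (1.42 to 2.08) higher in G1. Actc1, at 5600 against 3792 (1.48-fold, 1.41 to 1.55), and Myh8 (1.35-fold, 0.838 to 2.29) did not reach the size. In cluster 1, which had only 18 G1 cells, Myl4 (2.86-fold, 1.54 to 4.91) and Actc1 (1.56-fold, 1.29 to 1.86) were higher in them, 2 of 7 measured against 2.44% of 10435 genes higher and 4.15% lower. Phase calls are per-cell scores that can also read free RNA, and the sources used here do not give the gene lists behind them.

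Within a cluster the members followed Myog to different degrees. In E11.5 cluster 14, 36 of 151 thinned cells held a UMI of Myog, and those 36 cells gave all UMIs of Acta1, Myl4 and Myh3, 94.5% of Myl1, 94.1% of Mylpf, 79.1% of Actc1 and 55.0% of Myh8. Median depth was 12148 UMIs in these cells and 11758 in the rest. Mylpf stood at 467 CPM with Myog and 9.41 without (49.6-fold, 28.4 to 94.7), and Actc1 at 977 and 83.3 (11.7-fold, 9.53 to 14.5). All 6 cells rich in the members were among the 36, and without them the ratios were 14.9 (8.06 to 29.8) for Mylpf, 16.2 (8.08 to 36.1) for Myl1 and 6.23 (4.93 to 7.90) for Actc1. Over all genes other than Myog, 3.81% were higher and 3.85% lower in the cells with Myog. In E13.5 cluster 1, 102 of 507 cells held Myog. Only Actc1, at 809 against 250 CPM (3.24-fold, 3.03 to 3.46), and Myl1, at 26.5 against 12.4 (2.14-fold, 1.51 to 3.02), differed by 1.5-fold or more with an interval off 1, beside 2.58% of 10434 genes higher and 3.32% lower. Acta1 (1.28-fold, 0.757 to 2.10) and Myh3 (1.05-fold, 0.486 to 2.06) did not. Clusters 15 and 19 could not be split in this way, since 160 of 161 and 77 of 80 cells held Myog.

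Isoform make-up was compared as the share of 1 isoform among the UMIs of its family. Among the sarcomeric actins, Acta1 made up 8.33% (6.25 to 10.8) of E11.5 cluster 14, 2.46% (1.98 to 3.00) of E13.5 cluster 1, 5.39% (5.03 to 5.77) of cluster 15 and 35.5% (35.0 to 36.1) of cluster 19. Actc1 made up the rest of the UMIs of this pair, from 97.5% in cluster 1 down to 64.5% in cluster 19. Across the 80 cells of cluster 19 the Acta1 share was 35.4% ± 13.8 (SD over cells, which are not replicates). Between the alkali light chains, Myl4 made up 14.9% (10.4 to 20.4), 59.4% (54.3 to 64.4), 24.0% (22.7 to 25.2) and 49.7% (49.1 to 50.3) in the same order. Among the 3 heavy chains, Myh3 made up 48.8% (32.9 to 64.9), 34.2% (26.9 to 42.0), 76.6% (73.1 to 79.9) and 78.3% (77.2 to 79.4), and Myh7 3.98% (3.47 to 4.53) in cluster 19. In cluster 1 a large part of these UMIs was at the mesenchyme level. In E13.5 mesenchyme Myl4 made up 64.9% of the alkali light chains and Acta1 24.9% of the actins, and once the mesenchyme level was subtracted, Myh3, Myh7 and Acta1 had 0% left in cluster 1. Between clusters 15 and 19 the Myh3 intervals overlapped, while the shares of Acta1 and Myl4 were larger in cluster 19 beyond their intervals. In E11.5 cluster 14, 19 of 20 UMIs of Myh3 but only 5 of 20 of Myh8 came from the 6 cells rich in the members. The 48.8% there was therefore not a make-up shared by its cells.

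**Figure D5:**
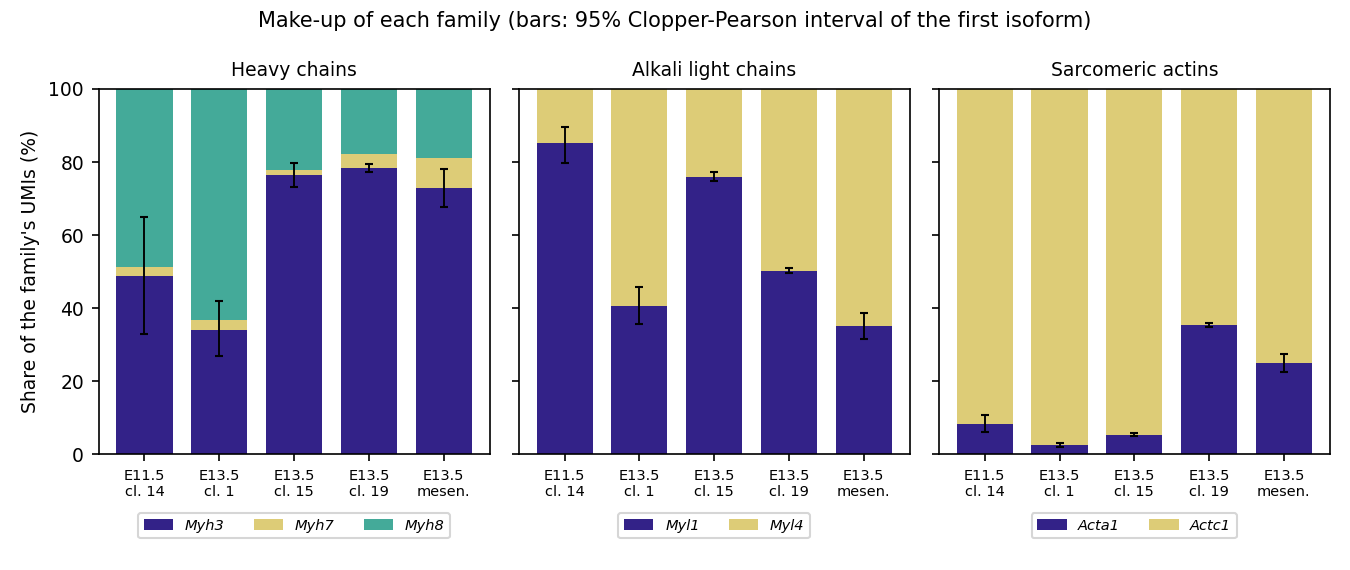
Percent of the UMIs of each family (heavy chains, alkali light chains, sarcomeric actins) that came from each isoform, in the 4 muscle clusters and in E13.5 mesenchyme, with the 95% Clopper-Pearson interval of the first isoform as a bar. Acta1 is 35.5% of actin UMIs in E13.5 cluster 19 and under 9% in the other muscle clusters, and Myl4 nears 50% of the alkali light chains in cluster 19.

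Across all 40 clusters, the genes with the most similar level to each member, among 5974 genes with at least 50 CPM in 1 cluster or more, and not members themselves, were mostly muscle genes. Likeness was the Pearson correlation of log2(CPM + 1), a description over clusters that share 2 libraries. Tnnc2, fast troponin C, was nearest to Acta1 (r = 0.989), Myh3 (0.975) and Mylpf (0.972), and Tnnc1, slow troponin C, to Myl4 (0.970). Sln, sarcolipin, was nearest to Myl1 (0.966), Ttn, the giant protein titin, to Actc1 (0.975), and Neb, nebulin, to Myh8 (0.930). Ablim3 was nearest to Myh7, at 0.837. Among the members themselves Myh3 and Mylpf were most alike (0.981), and Myh7 and Actc1 least (0.664). Tnnc2 stood at 48.2, 11.5, 241 and 5656 CPM in E11.5 cluster 14 and E13.5 clusters 1, 15 and 19, the same order of clusters as Acta1. Ttn stood at 74.5, 87.8, 654 and 2080, the same order as Actc1.

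Lists of other muscle genes were read in the same contrasts. From E13.5 cluster 1 to cluster 15, 11.9% of 10902 genes were higher and 22.4% lower. Of 8 measured troponins, 7 were higher and 1 lower. The median of their log2 ratios was 4.08, against -0.18 over all genes and 5.05 for the members. Tnnt2, the cardiac troponin T of embryonic muscle, was 68.9-fold higher, while Tnni3, the cardiac troponin I, was at 0.128 (0.00313 to 0.766) of its cluster 1 level on 1 UMI in cluster 15. Of the thick filament and giant proteins 5 of 7 were higher, led by the myosin chaperone Unc45b (273-fold, 74.2 to 2279, on 2 UMIs in cluster 1). Unc45b reached the minimum of UMIs only through cluster 15. Of the Z disc and cytoskeleton genes 10 of 12 were higher, led by Myoz2 (89.8-fold), and of the excitation-contraction and synapse genes 11 of 12, led by the calcium store protein Casq2 (107-fold). From cluster 15 to cluster 19, 13.3% of 8781 genes were higher and 16.8% lower. In this step 6 of 7 troponins were higher (median log2 ratio 2.42, against 3.36 for the members and -0.14 over all genes), led by Tnnc2 (23.5-fold). So were 9 of 9 thick filament genes, led by Mybph (42.8-fold), and 13 of 15 Z disc genes, led by the titin cap Tcap (217-fold, 38.4 to 8617, on 1 UMI in cluster 15), while the alpha-actinin gene Actn3 was 4.56-fold lower. Tcap reached the minimum of UMIs only through cluster 19. The cytoplasmic and smooth muscle actins and myosins did not go the same way. From cluster 1 to 15, 2 of 10 were higher and 5 lower, and from 15 to 19, 2 of 8 were higher and 3 lower, with Actb, the cytoplasmic beta-actin, 2.54-fold lower. Of the myogenic regulators, 8 of 19 were higher and 6 lower from cluster 1 to 15, with Msc 66.8-fold lower, and 2 of 16 higher and 4 lower from 15 to 19, where the share higher was near the 13.3% of all genes.

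Between E13.5 cluster 1 and E11.5 cluster 14, 1 of 8 troponins was higher (Tnni2, 1.75-fold) and 4 lower (Tnnc2 most, 4.18-fold). Their median was -0.64 on the log2 scale, against -0.08 over all genes and -1.02 for the members. Of 9 Z disc and cytoskeleton genes, 3 were higher (Pdlim3 most, 7.07-fold, on 3 UMIs at E11.5) and 1 lower (Klhl41, 7.26-fold). Of 11 excitation-contraction and synapse genes, 2 were higher (Chrnb1 most, 2.56-fold) and 4 lower (Sln most, 11.3-fold). Of 5 thick filament and giant protein genes, 0 were higher and 2 lower (the muscle methyltransferase Smyd1 most, 5.92-fold). Over all genes 6.53% were higher and 11.8% lower. Myogenic regulators were split, with 5 of 20 higher, Met most (4.29-fold), and 8 lower, Myf6 most (3.42-fold). Pax7 was 3.24-fold (1.81 to 6.36) higher and Myog 2.61-fold (2.43 to 2.81) lower in cluster 1. The heavy chains of adult fast fibres were low in the clusters where Myh3 was high. Myh1 stood at 9.35 CPM in cluster 15 and 2.58 in cluster 19, Myh2 at 1.95 and 8.76, and Myh4 at 0.780 and 9.28.

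Other striated or contractile cells were checked through their markers. Of the 7 cardiomyocyte markers, 5 were in the E13.5 table, and of these Myl7 was at 0 in all 3 clusters. Nkx2-5 stood at 161, 298 and 431 CPM in clusters 1, 15 and 19 and at 137 in E11.5 cluster 14, and Myl2, the slow regulatory light chain, at 24.7 in cluster 19. Of the 7 smooth muscle and pericyte markers, Rgs5 was at 0 in all 4 clusters and Myh11 in the 3 of E13.5, while Acta2, the smooth muscle actin that embryonic skeletal muscle is also known to make, stood at 920.4, 1701, 3468 and 3358. Tagln, a smooth muscle actin-binding protein, stood at 24.1, 64.2, 5.85 and 170 and was at least 5-fold over mesenchyme in E11.5 cluster 14 and E13.5 cluster 19. Summed erythroid markers, mostly haemoglobin, stood at 15722 CPM in E11.5 cluster 14 against 11743 in mesenchyme, and at 961, 3175 and 759 in E13.5 clusters 1, 15 and 19 against 1379. Of the 6 epithelial markers, Krt8 was at least 5-fold over mesenchyme in clusters 15 and 19, where summed epithelial markers stood at 139 and 195 against 94.2. The part of these in the results was not tested.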

How the data were processed

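Gene expression was measured in 10x single-cell libraries of dissected mandibular prominence, 1 at E11.5 and 1 at E13.5. Raw UMI counts per gene and cell were used as deposited, and the authors' deposited cluster numbers, lineage names and phase calls were taken over. Per the submitters' processing notes, the tools included Cell Ranger 2.0.0 and Seurat 2.3.4 and the build was mm10, the same assembly as GRCm38. Which annotation release was counted, how cells were filtered and whether doublets had been removed is not stated in them. The authors' deposited mitochondrial fraction served for an alternative limit on cells, and the authors' deposited phase scores were not used, only the calls made from them. Cells ranged from 2253 UMIs upward at E11.5 and from 500 at E13.5. No doublet caller was run and no cell was removed.

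UMIs were summed per cluster and divided by the cluster's total. Intervals are 95%: exact Poisson for levels, exact Clopper-Pearson for shares and exact conditional binomial for ratios. They cover counting error only, since cells are not replicates. With 1 library per stage no test was made, and edge cases with 0 UMIs were set against a floor of 3 UMIs over the group. A gene needed 20 UMIs over both groups to be measured and 1.5-fold with an interval off 1 to be counted. Scripts (scipy 1.17.1, pandas 2.3.3, matplotlib 3.10.9 and numpy 2.4.6 under Python 3.11.15) were checked on simulated data. Gene positions and 3' ends came from GENCODE on GRCm38 and promoters from RefSeq on the same build.

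The members and lists were chosen with earlier results of these data known. Named were all members, the highest and lowest gene of each list in a contrast, Myog, Myod1, Pax7 and Des, the 3 genes most like each member, and the highest cluster outside muscle. Genes named beyond this rule (Myh1, Myh2, Myh4, Myh6 and cell type markers) were chosen after their values were seen. Alternatives covered scaling, per-cell means, limits on cells, phase, background subtraction, the fold, the UMI minimum, the thinning depth and the cells left out.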

Additional observations from a re-analysis of the deposited data

How the results depend on the processing

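The excess of the members in E13.5 clusters 15 and 19 over cluster 1, in 19 over 15 and in the pooled clusters over E11.5 cluster 14 kept 7 or 8 members higher and 0 lower under each alternative run. Actc1 between clusters 19 and 15 (0.96 on the log2 scale) missed a call at 2-fold. Myh7 in the pooled contrast (2.23) lost its call without cells holding epithelial, endothelial, macrophage or glial markers. The contrast of E13.5 cluster 1 with E11.5 cluster 14 depended on the cells used. The count of members higher there was 0, and became 1 (Myl4) without the 5% of cells with the most UMIs and 1 (Myl4) without the marker-holding cells. It became 5 higher and 0 lower in S and G2M cells only, and 3 higher and 1 lower without the 6 E11.5 cells rich in the members. In both, Myh3 and Myl4 reached the minimum of UMIs only through cluster 1, as did Acta1 in the first. No share over all genes was computed under these alternatives, so nothing is read from their counts. In log2 ratios, Actc1 turned to -0.81 in G1 cells only, Myl4 to -1.06 with the mesenchyme level subtracted and Mylpf to 1.78 in S and G2M cells only. Without the 6 cells Myh3 turned to 3.26, Mylpf to 0.48 and Acta1 to 0.30. Without them 3 members (Myl1, Mylpf and Actc1, all that were still measured) were higher in G1 in cluster 14, against 7, and the same 3 kept their direction and call by Myog. In E13.5 cluster 1, 2 members (Myh8 and Acta1) were lower in G1 by the mean of CPM per cell, against 0. Of 388 alternative log2 ratios 372 kept direction and call. Shares of cells with a UMI moved beyond their interval in 54 of 96 alternatives, which changed the depth or the number of UMIs asked for. The share of an isoform in its family moved beyond its interval in 20 of 53 alternatives. These took the mean over cells or subtracted the mesenchyme level. The alternative without the 6 cells, that of S and G2M cells and that of marker-holding cells without erythroid markers were chosen after seeing the data. Leaving out cells with 3 or more UMIs of any other class, haemoglobin included, would have removed all cells of the 4 clusters and gave no value. No paired analysis was possible because each stage has 1 library.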
